A study of Mus musculus with 6 samples.

Results

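Adrenomedullin, the endothelins and nitric oxide are signals by which endothelial cells set the calibre and tightness of vessels, and the genes of these 3 systems are described here. The 10 genes were Adm, Calcrl, Ramp1, Ramp2, Ramp3, Edn1, Ednra, Ednrb, Ece1 and Nos3. They were chosen with earlier results of these data known, and their probe sets were found by symbol in the platform annotation. Of them 9, among 18193 genes named on the array, had a probe set that carries that symbol alone, and these gave 18 of the 45101 probe sets. Ednra had no such probe set in the annotation used and was not analysed here. Expression had been measured with Affymetrix mouse arrays in embryos of the ICR strain. All were at 8.5 days post coitum with 3 to 4 somites, a stage that precedes the circulation of blood. There were 6 arrays, 2 for each of 3 groups. The groups were cells positive for Flk1, the embryo proper of the Flk1 knockout (Flk1 KO) and the embryo proper of the wild type (WT). Flk1 is the VEGF receptor that Kdr encodes, carried by endothelium and its precursors. The design text lists Flk1+/GFP embryos as a source, and the label of the cells gives only that they are Flk1-positive. The sources used here do not give how the cells were selected, which Flk1 allele was used or whether embryos were pooled. The Flk1-positive cells are set against the embryo proper, and their label does not name the tissue they came from. A reporter genotype, the tissue of origin or the handling of the cells therefore cannot be told apart from cell type.

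Adrenomedullin is a peptide hormone. Its receptor is a pair of proteins, the calcitonin receptor-like receptor encoded by Calcrl and a receptor activity-modifying protein (RAMP) that carries it to the cell surface and sets which peptide it binds. With RAMP1 the receptor binds calcitonin gene-related peptide, and with RAMP2 or RAMP3 it binds adrenomedullin. In mice the loss of Adm, Calcrl or Ramp2 is lethal before birth, with oedema and vessel defects. Endothelin-1, encoded by Edn1, is released from its precursor by the protease ECE1 and acts on the receptors EDNRA and EDNRB. In the embryo endothelin signalling also patterns the jaw arches and guides neural crest cells. Nos3 encodes endothelial nitric oxide synthase, which makes nitric oxide from arginine.

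Promoters are shown for a receptor gene of the adrenomedullin system (Calcrl), an endothelin ligand gene (Edn1) and an endothelin receptor gene (Ednrb), all higher in Flk1-positive cells. Each window runs from 250 bases before the start to 50 bases from it, on the gene's strand, in RefSeq's annotation of GRCm38.p6. Calcrl lies at chr2:84425217-84425516 on the minus strand, Edn1 at chr13:42301226-42301525 on the plus strand and Ednrb at chr14:103843652-103843951 on the minus strand. Capitals mark matches on either strand to any of 6 motifs. These were the ETS motifs CAGGAA and CCGGAA, the GATA motif AGATAA, the SOX motif ACAATG, the hypoxia response core ACGTG and the AP-1 motif TGANTCA.
Calcrl: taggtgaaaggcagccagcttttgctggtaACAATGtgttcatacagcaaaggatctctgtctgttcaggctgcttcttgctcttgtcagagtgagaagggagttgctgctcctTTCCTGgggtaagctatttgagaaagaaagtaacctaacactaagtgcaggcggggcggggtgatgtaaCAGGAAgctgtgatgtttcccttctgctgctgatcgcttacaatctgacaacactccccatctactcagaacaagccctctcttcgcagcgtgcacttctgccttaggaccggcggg
Edn1: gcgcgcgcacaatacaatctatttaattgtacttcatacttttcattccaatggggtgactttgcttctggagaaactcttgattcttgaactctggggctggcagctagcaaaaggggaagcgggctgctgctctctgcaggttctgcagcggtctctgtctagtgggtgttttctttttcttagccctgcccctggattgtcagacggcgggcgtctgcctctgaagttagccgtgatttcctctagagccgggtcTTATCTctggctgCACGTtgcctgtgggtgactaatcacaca
Ednrb: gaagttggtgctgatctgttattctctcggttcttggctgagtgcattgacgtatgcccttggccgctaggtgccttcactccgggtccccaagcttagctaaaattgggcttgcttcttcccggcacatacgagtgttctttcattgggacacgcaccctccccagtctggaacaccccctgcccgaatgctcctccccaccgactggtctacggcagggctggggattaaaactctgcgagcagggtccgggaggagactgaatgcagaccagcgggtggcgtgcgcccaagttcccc
In the Calcrl window CAGGAA matched on the minus strand from -136 to -131 and on the plus strand from -67 to -62, and ACAATG matched from -220 to -215, counted from 1 at the start with negative positions before it. In the Edn1 window AGATAA matched on the minus strand at 9 to 14 and ACGTG at 22 to 26. None of the 6 motifs matched in the Ednrb window. Among 32851 windows of the same length, CAGGAA occurred in 30.6%, CCGGAA in 14.9%, AGATAA in 11.2%, ACAATG in 12.6%, ACGTG in 19.6% and TGANTCA in 7.81%. These shares are per window, while 8 of the listed genes had 11 windows, 4 of them for Ece1. Ramp2 and Nos3 had none, so the counts leave them out. Counting a gene when any of its windows matched, CAGGAA was found in 4 genes, CCGGAA in 1, AGATAA in 1, ACAATG in 2, ACGTG in 2 and TGANTCA in 0. A match is a run of letters and does not show that a factor binds there.

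All levels below are linear probe-set signals, which the authors had scaled to a common level on every array. Differences are on the scale of log2(signal + 21.6), where dim genes appear to change less than they do, and each is written with its standard error (±) from 1 limma model of the 6 arrays. Their p-values are adjusted over the 33778 probe sets tested. A signal of 57.4, below which 95% of 80 probe sets for odour and pheromone receptors fell, was taken as background. The number of arrays limits the precision. Nothing in the labels says that the samples of a group were separate animals or cultures, so the p-values rest on differences between samples that may be technical alone. Kdr, the targeted gene, read 3309 and 3328 in Flk1-positive cells, 29.5 and 63.8 in Flk1 KO embryos, and 544 and 546 in WT embryos. Its Flk1 KO mean was below background, as the labels have it. All 10 endothelial markers of a list, among them Cdh5 and Cldn5, were higher in Flk1-positive cells than in the wild type, and their sum came to 47059 and 47186 in Flk1-positive cells, 970.1 and 925 in Flk1 KO embryos, and 3255 and 3139.6 in WT embryos. RNA controls differed with the group. The transferrin receptor control had a 3' signal above its 5' signal by 1.33 and 1.44 (log2) in Flk1-positive cells and by 0.97 to 1.09 on the embryo arrays, and for Actb the values were 0.26 and 0.29 in Flk1-positive cells and 0.47 to 0.58 on the embryo arrays. Their part in the results was not tested.

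Most of the 9 genes analysed were higher in Flk1-positive cells than in the wild type, unlike the further pathway lists given below. By their brightest probe sets 7 of the 9 were higher and 1 was lower, where 12.6% of all 14956 genes tested were higher and 18.1% lower. Because the genes were chosen with earlier results of these data known, the shares and medians over all genes describe the background and do not test the set. The receptor pair Calcrl and Ramp2 and the synthase gene Nos3 differed by 9.67-fold to 13.3-fold on the pseudocount scale, the endothelin genes Edn1, Ednrb and Ece1 by 4.25-fold to 4.63-fold, and Adm by 1.60-fold. Ramp3 was lower and Ramp1 did not pass the test. The median difference was 2.16 over the 9 genes and -0.09 over all genes. Both Flk1-positive arrays lay above both WT arrays for 7 genes and below for 1, against 30.6% and 42.2% of all genes. In Flk1 KO embryos none of the 9 passed the test against the wild type, where 0% of all genes were higher and 0.154% lower.

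**Figure D1:**
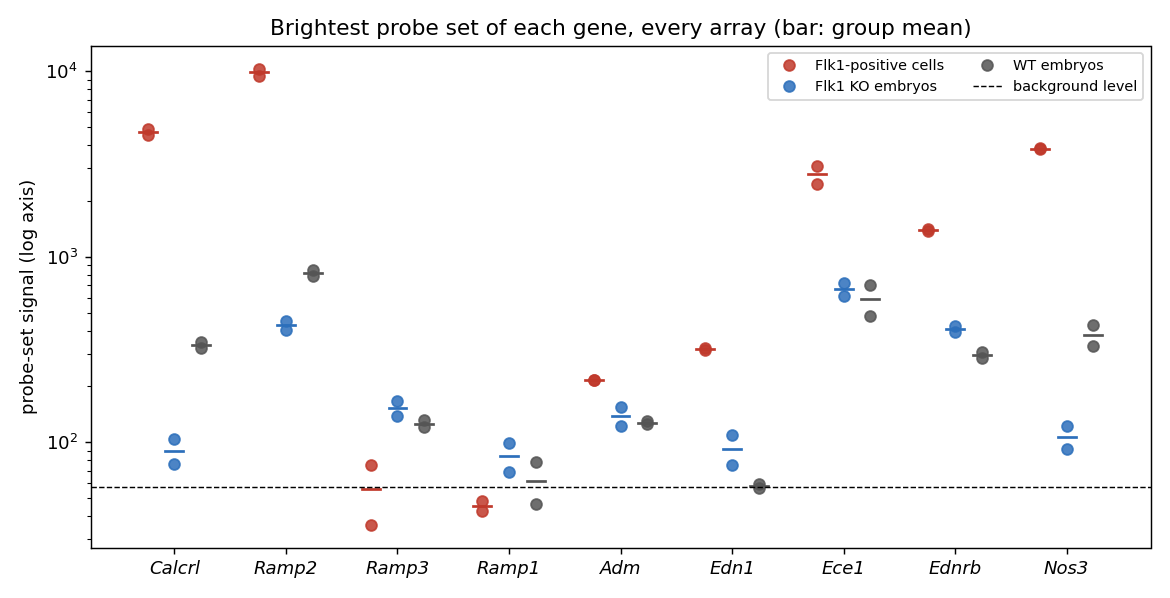
Probe-set signal on a log axis for the brightest probe set of each of the 9 genes. Points are single arrays of Flk1-positive cells, Flk1 KO embryos and WT embryos (2 each), short bars are group means, and the dashed line is the background signal of 57.4. Flk1-positive cells stand above both embryo groups for all genes shown except Ramp3 and Ramp1, and for Calcrl, Ramp2 and Nos3 the Flk1 KO points lie below the WT points.

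Calcrl encodes the core of the adrenomedullin receptor. Its brightest probe set (1425814_a_at) read 4893 and 4543 in Flk1-positive cells, 76.5 and 104 in Flk1 KO embryos, and 349 and 322 in WT embryos. No pair of groups overlapped, with Flk1-positive cells highest and Flk1 KO embryos lowest. Flk1-positive cells differed from the wild type by 3.73 ± 0.17 (limma adjusted p = 0.000403). A second Calcrl probe set (1418489_a_at) read 765 and 686 in Flk1-positive cells, 35.5 and 24.6 in Flk1 KO embryos, and 41.5 and 43.5 in WT embryos. Both embryo groups lay below background there, so Calcrl was at least 9.44-fold higher in Flk1-positive cells (limma adjusted p = 0.000403) and the order of the embryo groups cannot be read from this probe set. The remaining one (1459536_at) was not tested and was below background on all 6 arrays, between 2.03 and 26.8.

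Ramp2 encodes the partner that makes Calcrl an adrenomedullin receptor. It read 9442 and 10308 in Flk1-positive cells, 453 and 405 in Flk1 KO embryos, and 852 and 789.6 in WT embryos (1418187_at). The groups did not overlap and came in the order seen for Calcrl. Ramp2 was higher by 3.55 ± 0.14, or 11.7-fold, in Flk1-positive cells relative to the wild type (limma adjusted p = 0.000403). Another 2 probe sets are annotated both to Ramp2 and to Vps25, an endosomal sorting gene that lies beside it, and were counted for neither. These were nearly level across the groups: 1421051_s_at read 1767 and 1941 in Flk1-positive cells, 1848 and 1817 in Flk1 KO embryos, and 1795 and 1726 in WT embryos, and 1428621_a_at lay between 1904 and 2414 on the 6 arrays. Their differences between Flk1-positive cells and the wild type, 0.07 ± 0.13 and 0.15 ± 0.15, did not pass (limma adjusted p = 0.712 and 0.508).

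The other RAMP genes were not higher. Ramp3, the alternative adrenomedullin partner, read 75.6 and 35.9 in Flk1-positive cells, 168 and 139 in Flk1 KO embryos, and 121 and 132 in WT embryos (1420401_a_at). Its Flk1-positive mean was below background, and the WT mean was 1.87-fold above that level on the pseudocount scale. Ramp3 in Flk1-positive cells differed from WT embryos by -0.98 ± 0.27 (limma adjusted p = 0.0491, 95% interval -1.66 to -0.31). The call was lost in 11 of 19 alternative settings, among them the fits without any 1 array other than Flk1-positive replicate 1 (adjusted p = 0.0822 to 0.181 in limma). The difference was -0.60 without Flk1-positive replicate 2 and -1.36 without replicate 1. Ramp1, the partner for calcitonin gene-related peptide, read 48.1 and 42.8 in Flk1-positive cells, 98.8 and 69.1 in Flk1 KO embryos, and 78.0 and 46.3 in WT embryos (1417481_at). Its Flk1-positive mean was not above background, and the difference from the wild type of -0.29 ± 0.24 did not pass (limma adjusted p = 0.421, 95% interval -0.90 to 0.31). The other Ramp1 probe sets, 1447474_at and 1431413_at, were below background in all 3 groups.

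The ligand gene Adm gave a smaller difference than the receptor pair. The brighter of its 2 probe sets (1447839_x_at, a class in which some probes may also match other transcripts) read 218 and 216 in Flk1-positive cells, 154 and 123 in Flk1 KO embryos, and 130.3 and 125 in WT embryos. Flk1-positive cells lay above both embryo groups, which overlapped each other. Flk1-positive cells differed from WT embryos by 0.68 ± 0.15 (limma adjusted p = 0.0244), and the call ended without any 1 of the Flk1-positive or WT arrays (adjusted p = 0.0985 to 0.118 in limma). The dimmer one (1416077_at) read 145 and 168 in Flk1-positive cells, 134 and 48.2 in Flk1 KO embryos, and 57.8 and 44.5 in WT embryos. There the WT mean was below background, the Flk1 KO arrays stood apart from each other, and the difference between Flk1-positive cells and WT embryos did not pass (1.30 ± 0.38, limma adjusted p = 0.0595).

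Edn1, Ece1 and Ednrb, the listed endothelin genes with a probe set in the annotation used, were higher in Flk1-positive cells. The receptor gene Ednra was not analysed. Edn1 read 314 and 321 in Flk1-positive cells, 75.2 and 109 in Flk1 KO embryos, and 56.9 and 59.6 in WT embryos (1451924_a_at). The WT arrays sat close to background, and no pair of groups overlapped. Edn1 was higher by 2.09 ± 0.18 in Flk1-positive cells relative to the wild type (limma adjusted p = 0.00127). Ece1, the protease that frees the active peptide, read 2474 and 3081 in Flk1-positive cells, 719.7 and 615 in Flk1 KO embryos, and 479 and 701 in WT embryos by its brightest probe set (1434177_at). Flk1-positive cells were 2.21 ± 0.23 above the wild type (limma adjusted p = 0.00237), while the embryo groups overlapped. A second Ece1 probe set (1455741_a_at) read 2336 and 2354 in Flk1-positive cells, 808 and 872 in Flk1 KO embryos, and 675 and 823 in WT embryos, and was higher by 1.63 ± 0.15 in Flk1-positive cells (limma adjusted p = 0.00156). The remaining one (1441423_at) stayed below background on all arrays, between 14.7 and 45.3.

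Ednrb encodes the receptor that binds the endothelin peptides about equally and is known from neural crest and endothelium. Its brightest probe set (1437347_at) read 1377 and 1408 in Flk1-positive cells, 394 and 421 in Flk1 KO embryos, and 306 and 285 in WT embryos. Flk1-positive cells were highest, and the Flk1 KO arrays lay above the WT arrays. The 3 Ednrb probe sets were all higher in Flk1-positive cells than in the wild type, by 2.16 ± 0.12, 1.80 ± 0.16 and 1.78 ± 0.19 (limma adjusted p = 0.000525, 0.00142 and 0.00239). Of 7 neural crest markers, 5 were lower and 1, Ets1, which endothelium also expresses, was higher in Flk1-positive cells. The summed crest signal was 7835 and 8051 in Flk1-positive cells, 4341 and 5143 in Flk1 KO embryos, and 4463 and 4643 in WT embryos, of which Ets1 alone gave 6886 and 7229.6 in Flk1-positive cells. The other 6 markers, grouped so after the values were seen, summed to 949 and 821 in Flk1-positive cells, 3374 and 4314 in Flk1 KO embryos, and 3418 and 3660.5 in WT embryos. In Flk1-positive cells 3 of the 7 were above background. Of the crest markers, Sox10 was below background in Flk1-positive cells and read 42.6 and 9.29 in Flk1-positive cells, 247 and 236 in Flk1 KO embryos, and 171 and 193 in WT embryos. Foxd3, Tfap2a and Pax3 were below background in Flk1-positive cells as well. Snai2 and Ngfr were above it, like Ets1. Snai2 read 560 and 570 in Flk1-positive cells and 1293 and 1534 in WT embryos, and was lower. Ngfr read 227 and 156 in Flk1-positive cells and 255 and 222 in WT embryos, and did not pass (-0.30 ± 0.20, limma adjusted p = 0.33). The part of crest cells in the Ednrb signal was not tested.

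Nos3 read 3849 and 3814 in Flk1-positive cells, 122 and 92.3 in Flk1 KO embryos, and 427 and 332 in WT embryos (1422622_at). The groups did not overlap, and their order was that of Calcrl and Ramp2. Nos3 was higher by 3.27 ± 0.19 in Flk1-positive cells relative to the wild type (limma adjusted p = 0.000511). The calls of Calcrl, Ramp2, Edn1, Ece1, Ednrb and Nos3 in this comparison held in all 19 alternative settings run for each, those that left out single arrays included.

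Blood cell markers were higher alongside these genes. All 6 primitive erythroid markers tested were higher in Flk1-positive cells than in the wild type, and summed to 43019 and 44771 in Flk1-positive cells, 282 and 157 in Flk1 KO embryos, and 990.1 and 486 in WT embryos. Of 5 macrophage and megakaryocyte markers tested, 4 were higher, and the sum of the 6 measured was 4155 and 4001 in Flk1-positive cells, 619 and 394 in Flk1 KO embryos, and 628 and 562 in WT embryos. The exception was Ptprc, the pan-leukocyte gene, which read 64.9 and 83.3 in Flk1-positive cells, 44.4 and 5.43 in Flk1 KO embryos, and 16.7 and 7.61 in WT embryos and did not pass. No group mean of Gp9 was above background. The part of blood cells in the signals of the vascular genes was not tested.

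The knockout comparison asks which of these genes change in embryos without the receptor. With limma 0 of the 9 genes, and 0 of their 16 tested probe sets, passed in Flk1 KO embryos, where 0.0799% of all probe sets were lower. At an unadjusted p under 0.05 there were 2 higher and 3 lower, against 2.65% and 3.69% of all genes. The 3 were the receptor pair and the synthase gene. Calcrl differed by -1.68 ± 0.17 (limma adjusted p = 0.0738, 95% interval -2.10 to -1.27), Nos3 by -1.64 ± 0.19 (adjusted p = 0.0979, -2.11 to -1.17) and Ramp2 by -0.90 ± 0.14 (adjusted p = 0.177, -1.24 to -0.56). Mean Flk1 KO signals were 0.269, 0.282 and 0.523 of the WT means for Calcrl, Nos3 and Ramp2. With an intensity trend and a robust prior all 3 passed (adjusted p = 0.000467, 0.000993 and 0.00411 in limma). Of the 19 alternative settings, Calcrl and Nos3 each stayed without a call in 16 and Ramp2 in 18. By the median over its probe sets Calcrl differed by -0.32 ± 0.16 (limma adjusted p = 0.674), which is the value of the probe set that lay below background in both embryo groups. The 10 endothelial markers had a median of -1.69 in this comparison, with 4 lower by the test. Fewer endothelial cells and less RNA per cell cannot be told apart in samples of the embryo proper.

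The endothelin genes and the other RAMP genes had fitted differences above 0 in Flk1 KO embryos relative to the wild type by their brightest probe sets, as did Adm. The sign turned for Ece1 without WT replicate 1 (-0.07), for Adm without Flk1 KO replicate 1 (-0.05) and for Ramp1 with the median over its probe sets (-0.10). Edn1 differed by 0.50 ± 0.18 (limma adjusted p = 0.54, 95% interval 0.05 to 0.94) and Ednrb by 0.44 ± 0.12 (adjusted p = 0.446, 0.12 to 0.75). For Edn1, Ednrb and Ramp3 both Flk1 KO arrays lay above both WT arrays, as for 19.1% of all genes, and for Calcrl, Ramp2 and Nos3 both lay below, as for 18.2%. Ece1 (0.19 ± 0.23, limma adjusted p = 0.877, 95% interval -0.39 to 0.77) and Adm (0.09 ± 0.15, adjusted p = 0.91, -0.27 to 0.46) did not pass. Neither did Ramp3 (0.24 ± 0.27, limma adjusted p = 0.867, 95% interval -0.43 to 0.92) or Ramp1 (0.35 ± 0.24, adjusted p = 0.788, -0.26 to 0.95). Calcrl, Ramp2 and Nos3 kept the order Flk1-positive cells above WT above Flk1 KO on all arrays, as did 5.92% of all genes. Edn1 and Ednrb had Flk1-positive cells above Flk1 KO above WT on every array, as did 3.72%. For Edn1 the WT arrays, at 56.9 and 59.6, sat close to the background of 57.4. Both comparisons share the WT arrays.

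Set directly against Flk1 KO embryos, 7 of the 9 genes were higher in Flk1-positive cells and 1 was lower, where 13.3% of all genes were higher and 19.6% lower. By probe set 11 were higher and 1 lower of 16, against 13.9% and 15.4%. All Flk1-positive arrays lay above all Flk1 KO arrays for 7 genes and below for 2, against 29.4% and 40.3% of all genes. The difference was 5.41 ± 0.17 for Calcrl, 4.91 ± 0.19 for Nos3 and 4.46 ± 0.14 for Ramp2 (limma adjusted p = 0.000143, 0.000199 and 0.000143). It was 2.02 ± 0.23 for Ece1, 1.72 ± 0.12 for Ednrb and 1.59 ± 0.18 for Edn1 (limma adjusted p = 0.00284, 0.000686 and 0.00261). Adm differed by 0.58 ± 0.15 and Ramp3 by -1.22 ± 0.27 (limma adjusted p = 0.035 and 0.0235), with a 95% interval of -1.90 to -0.55 for Ramp3. Each of these calls was lost in 5 of the 6 fits that left out 1 array. Over all 19 alternative settings the Adm call was lost in 10 and the Ramp3 call in 6.

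**Figure D2:**
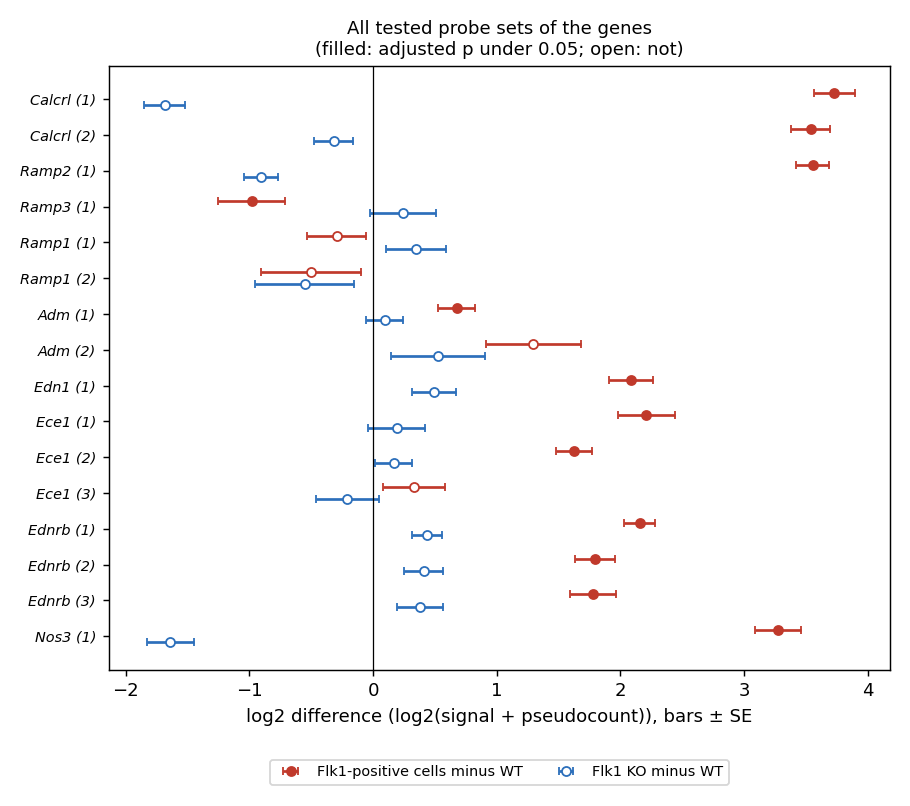
Log2 difference from WT embryos, with bars of ± SE from limma, for each of the 16 tested probe sets of the 9 genes. Red points are Flk1-positive cells minus WT and blue points Flk1 KO minus WT, filled where the adjusted p is under 0.05. Of the red points, 11 are filled on the higher side and 1 on the lower side, and no blue point is filled.

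More than 1 probe set was tested for 5 of the genes. Over the 16 tested, 11 were higher and 1 lower in Flk1-positive cells than in the wild type, against 11.7% and 14.5% of all probe sets. The dimmer Calcrl probe set gives no size for the difference between Flk1 KO and WT embryos, since both lay below background there.

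Other genes of the adrenomedullin system came from a list of 11, of which 9 were tested. In Flk1-positive cells 1 was higher and 2 lower than in the wild type, near the 12.6% and 18.1% of all genes, with a median of -0.13. Gpr182, an endothelial receptor once proposed to bind adrenomedullin, read 4025 and 3908 in Flk1-positive cells, 34.2 and 58.0 in Flk1 KO embryos, and 331 and 281 in WT embryos. It was higher by 3.61 ± 0.21 in Flk1-positive cells (limma adjusted p = 0.000511). Its Flk1 KO mean was below background, at least 4.14-fold under the wild type, without passing the test (limma adjusted p = 0.0601). Ackr3, a scavenger receptor for adrenomedullin and a chemokine, read 131 and 129.9 in Flk1-positive cells, 824 and 1316 in Flk1 KO embryos, and 919 and 1296 in WT embryos. Ackr3 (-2.87 ± 0.28) and Mme, a peptidase that breaks down small peptides (-2.39 ± 0.20), were lower in Flk1-positive cells (limma adjusted p = 0.0018 and 0.00112).

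Among 6 endothelin relatives and processing enzymes Ece2 alone passed, where 12.6% of all genes were higher. Ece2 read 1557 and 1658 in Flk1-positive cells, 1088 and 975 in Flk1 KO embryos, and 1048 and 1075 in WT embryos, and was higher by 0.59 ± 0.13 in Flk1-positive cells relative to the wild type (limma adjusted p = 0.0259). The other endothelin ligand genes, Edn2 (0.05 ± 0.23) and Edn3 (0.31 ± 0.16), did not pass. Of 6 genes that endothelin signalling turns on in the jaw arches of the mouse, 5 were tested and 3 were lower in Flk1-positive cells, against 18.1% of all genes. Dlx5 was at least 5.14-fold and Dlx3 at least 1.80-fold lower, and Hand2, also a heart gene, differed by -1.21 ± 0.13 (limma adjusted p = 0.000568, 0.00161 and 0.00287).

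**Figure D3:**
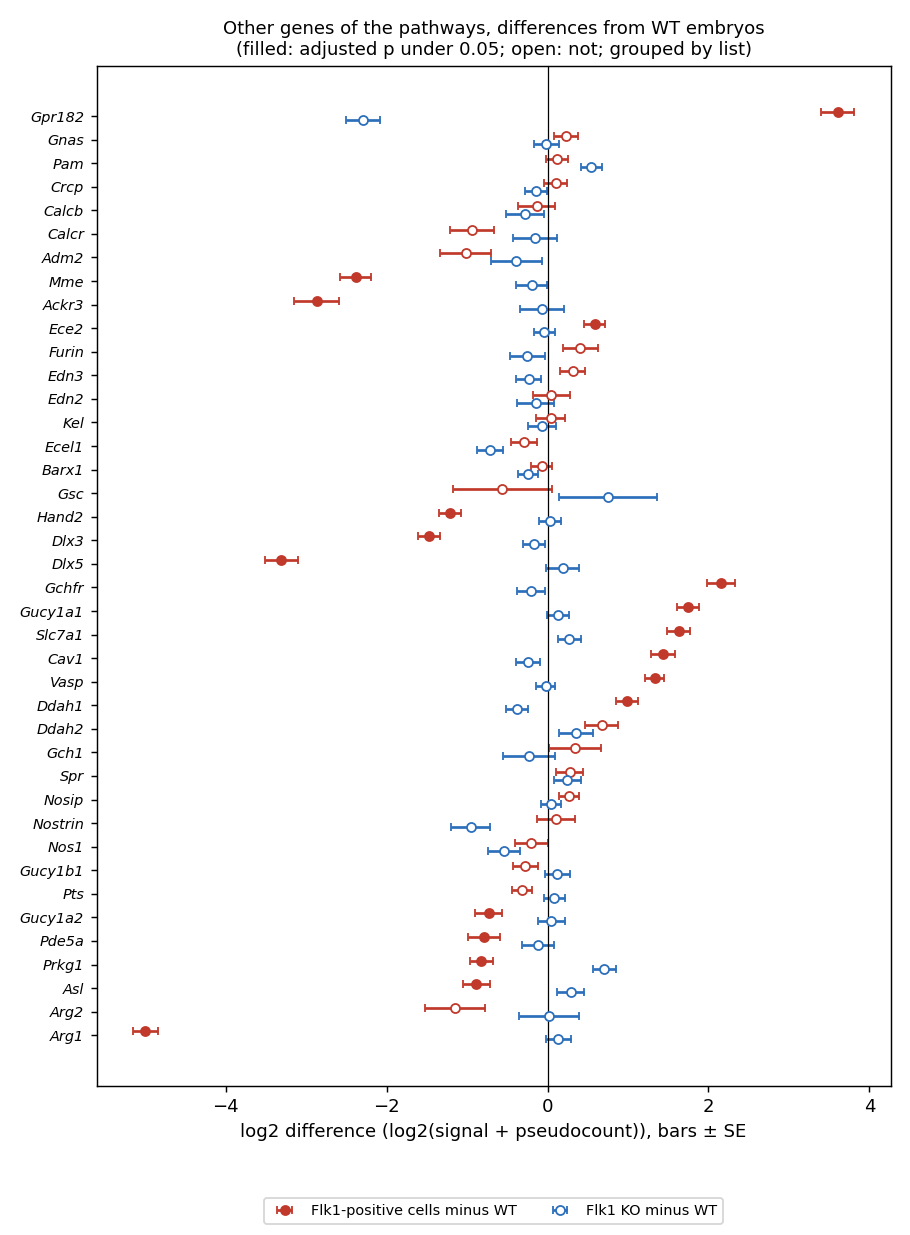
Log2 difference from WT embryos, with bars of ± SE from limma, for the 40 tested genes of the 4 pathway lists. Red points are Flk1-positive cells minus WT and blue points Flk1 KO minus WT, filled where the adjusted p is under 0.05. No blue point is filled, and red points are filled on both sides of 0.

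The nitric oxide list held 22 genes, of which 20 were tested. In Flk1-positive cells 6 were higher and 5 lower than in the wild type, against 12.6% and 18.1% of all genes, with a median of 0.19. Among the higher ones were Gchfr, the feedback regulator of cofactor synthesis (2.16 ± 0.18), Gucy1a1, a subunit of the nitric oxide receptor guanylyl cyclase (1.74 ± 0.14), and Slc7a1, an arginine transporter (1.63 ± 0.14). Cav1, the caveolin that holds the synthase inactive (1.43 ± 0.15), Vasp, an actin regulator and kinase substrate (1.33 ± 0.12), and Ddah1, which removes an inhibitor of the synthases (0.99 ± 0.14), were higher too. Gchfr read 585 and 600.1 in Flk1-positive cells, 116 and 81.7 in Flk1 KO embryos, and 109.8 and 122 in WT embryos. Slc7a1 read 1246 and 1308 in Flk1-positive cells, 521 and 453 in Flk1 KO embryos, and 379 and 418 in WT embryos. For both genes Flk1-positive cells lay above all embryo arrays. The embryo groups overlapped for Gchfr, and Flk1 KO lay above WT for Slc7a1. The lower ones were the arginine enzymes Arg1 (-5.0 ± 0.15) and Asl (-0.89 ± 0.17), the cyclase subunit Gucy1a2 (-0.73 ± 0.17), the cyclic GMP kinase Prkg1 (-0.82 ± 0.15) and the phosphodiesterase Pde5a (-0.79 ± 0.20). The highest limma adjusted p among these 11 genes was 0.0385, for Pde5a. Gucy1b1, a further subunit of the cyclase, read 223 and 186 in Flk1-positive cells and 234 and 271 in WT embryos. Its difference of -0.28 ± 0.16 did not pass (limma adjusted p = 0.253). Of the other synthases, Nos1 read 168 and 161 in Flk1-positive cells, 101 and 155 in Flk1 KO embryos, and 203 and 182 in WT embryos and did not pass between Flk1-positive cells and the wild type (-0.20 ± 0.20, limma adjusted p = 0.518), and Nos2, below background on all 6 arrays, was among the lowest 25% of probe sets by mean signal and was not tested. In Flk1 KO embryos 0 of the 40 tested genes of the 4 lists passed.

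For 4 of the genes, those with the largest differences, the nearest profiles over the 6 arrays were sought among 13938 genes by Euclidean distance between centred log2 values. Nearest to Calcrl were Rasip1 (0.361), Adgrf5 (0.370) and Plxnd1 (0.394). Nos3 had Myct1 (0.239), Kcnk6 (0.293) and Myzap (0.365), and Ramp2 had Nrros (0.299), Tgfb1 (0.326) and Tgfbr2 (0.347). Ece1 had Arhgef3 (0.286), Dock8 (0.291) and Reep1 (0.328). Rasip1 read 3727 and 3855 in Flk1-positive cells, 49.3 and 62.1 in Flk1 KO embryos, and 313 and 260.2 in WT embryos. Profiles of 6 arrays in 3 groups can lie close for many genes.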

How the data were processed

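Per the labels' protocols, RNA was isolated by RNeasy Micro Kit and labelled after the Affymetrix manual. The deposited values are linear probe-set signal intensities, and the series design text names GeneSpring. The trimmed mean of each array was 500 and the lowest value 1, so the authors scaled the values before deposit, by a program not given in the sources used here. No detection calls were used.

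Probe sets were named where the platform annotation gave 1 symbol (34958, with 932 several and 9211 none). Values were transformed as log2(signal + 21.6), the 25th percentile of all values, leaving out 64 control probe sets and those in the lowest 25% by mean signal. Group was the sole term of a linear model of the 6 arrays in limma 3.58.1 (R 4.3.3), with two-sided tests, Benjamini-Hochberg adjustment and a threshold of 0.05. A gene was called by its brightest probe set. Where the dimmer group's mean was below background, the fold is a bound against that level on the pseudocount scale. It is set by the group means and takes no account of the spread between arrays. Other pathway genes were named where they passed against WT embryos. Edn2, Edn3, Nos1, Nos2 and Gucy1b1 were named outside this rule, after their values were seen, as were Ptprc, Gp9, Snai2 and Ngfr. The 3 nearest genes are given for the 4 genes with the largest differences. The fit was tested on simulated data. Figures used matplotlib 3.10.9 in Python 3.11.15.

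The genes and lists were chosen with earlier results of these data known. Alternatives changed the pseudocount, filter, scaling, prior, groups fitted, replicate block, probe-set rule, a 2-fold limit and single arrays. Promoters came from RefSeq, with entries for 8 of the 10 genes used here and none for Ramp2 and Nos3.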

Additional observations from a re-analysis of the deposited data

How the results depend on the processing

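Of the 9 genes, 6 to 8 passed in Flk1-positive cells against WT embryos under every setting run, and 6 to 8 against Flk1 KO embryos. In Flk1 KO against WT embryos, 2 passed with the median as pseudocount, 2 with the filter at the median and 3 with an intensity trend and robust prior, all of them lower. Over all probe sets this comparison gave 27 calls. It gave 0 with the smaller pseudocount, with the 2 groups alone and without any single array (0 to 0), 7 with no filter, 12 with quantile normalization, 73 with the median as pseudocount, 99 with the filter at the median and 134 with the trend. The settings with 0 calls in limma had 2143 to 4368 probe sets at an unadjusted p under 0.05. A 2-fold limit left 4876 of 8848 calls for Flk1-positive cells against WT and 5450 of 9917 against Flk1 KO. On leaving out single arrays these ranged from 4394 to 8973 and from 5983 to 7877, and the 9 genes gave 6 to 7 in each. Differences that changed sign, none of them past the test, were in Flk1 KO against WT, Adm (-0.049 to 0.234 on leaving out single arrays, below 0 without Flk1 KO replicate 1), Ece1 (-0.073 to 0.458, below 0 without WT replicate 1) and Ramp1 (-0.095 with the median over its probe sets). The cause was not tested. With the replicate number as a block, 7 of the 9 genes passed against WT (Ramp3 was lost, adjusted p = 0.0518) and 7 against Flk1 KO (Adm was lost, adjusted p = 0.0513), and Flk1 KO against WT gave 0 probe sets. Same-numbered arrays did not deviate together (correlations of 0.01 to 0.03). With 2 arrays a group this cannot settle whether the numbers pair the samples. Every call lost among the 9 genes in the 2 comparisons of Flk1-positive cells was that of Adm or Ramp3. Adm against Flk1 KO was also lost with no filter (0.0547), the 2 groups alone (0.0729) and the median over probe sets (0.103). Ramp3 against WT was also lost with no filter (0.0703), the smaller pseudocount (0.0722) and the 2 groups alone (0.0822), all adjusted p in limma. The 2-fold limit ended both, by its own size criterion. The filter at the median left Ramp1 untested. A filter at the 25th percentile of all values and one on the mean log2 value were added after seeing the data. The first ended the Ramp3 call against WT (adjusted p = 0.0515). Signals near background limit Ramp1, Ramp3 and Adm, and also Edn1 in WT embryos.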
